A study of Saccharomyces cerevisiae with 20 samples.

Results

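Strains of Saccharomyces cerevisiae in which a single alanine of histone H3 or histone H4 was changed to serine were followed by their DNA barcodes through 44 days in 1 pooled culture. The strains were chosen from the mutation column of the deposited barcode table as every single substitution with alanine as the original and serine as the new residue, and 21 of 422 named strains met this. All 21 also passed a filter on low counts, a mean of 10 or more over the 20 libraries, which 347 strains passed in all, with means from 123.2 counts for H3A88S to 789.5 for H3A25S. Of the 21 strains, 16 changed H3 and 5 changed H4. They fell into 8 strains in the N-terminal tails (H3 residues up to 43, H4 residues up to 25) and 13 strains in the part of the histones that folds into helices. No other substitution at these residues and no other substitution to serine was among the named strains, so each residue was represented by 1 strain.

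The study asked which histone residues bear on how long non-dividing yeast survive. Every strain derived from JDY86, a MATa parent in which NatMX4 had replaced the hht1-hhf1 pair and a synthetic, URA3-marked HHTS-HHFS pair stood in place of hht2-hhf2, so that the cells made the mutated histone from its only copy. The parent also carried can1::MFA1pr-HIS3 and deletions in his3, leu2, trp1, ura3 and met15 with an allele that the methods write as K2Δ0, and these alleles were shared by all strains and all libraries. Cells from the pool were grown in YPD, diluted and shaken without further feeding. On days 0, 1, 2, 3, 5, 7, 14, 24, 34 and 44 the cells were spun through Percoll, which separates them by density, and the quiescent and non-quiescent cells were sequenced apart. This gave 20 libraries, 1 for each fraction and day. There were no replicate cultures, and each strain may be 1 isolate.

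Histones H3 and H4 pair through a motif of joined helices, the histone fold, and these pairs form the centre of the nucleosome, around which DNA is wound. The N-terminal tails of both histones extend out of the particle and carry most of the lysines that are acetylated or methylated. Serine is alanine with a hydroxyl group on its side chain, which makes it more polar and able to be phosphorylated, and the change is among the smallest a protein can undergo. When yeast run out of glucose, part of the culture becomes dense, unbudded quiescent cells that keep the ability to grow again, and the rest form a lighter non-quiescent fraction.

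Each strain was counted through its own pair of barcodes, named up and down, which are the sequences that carried every measurement below. They are given as the barcode table writes them for the 5 strains with the lowest levels at day 44 and for the strain with the highest.
H4A89S up: gatgcacttccactactgat
H4A89S down: agagtctgataactgcgttc
H3A110S up: ctgaacagttaattccacgc
H3A110S down: cgcattcagtacatttaccg
H3A111S up: ccatatttgcgaaggtcggc
H3A111S down: caccgactcagacttatagg
H3A88S up: ccgtgtccagaactagaata
H3A88S down: cagactttagaatgtccacc
H3A114S up: ccctgttatgaaccttgatc
H3A114S down: catcatttgtggtaatcggg
H4A33S up: atatagcgtgacagagtacg
H4A33S down: agccgcaatgacagcttata
The 42 barcodes of the 21 strains were 20 bases long with 45% to 55% G and C, and each differed from the nearest other barcode of the table at 4 to 9 positions. The adjacent residues H3A24 and H3A25 had each other's down barcode as the nearest, and the 6 positions at which these differ are in capitals.
H3A24S down: agattGcCctaacCGTGcag
H3A25S down: agattAcTctaacGCCTcag
The up barcodes of this pair differed at 15 of 20 positions, and the up barcode alone placed the strains at -0.54 and 0.37 at day 44, close to the values of -0.55 and 0.34 from both barcodes. The down barcode of H3A15S, agacttagtgaacgtcgctc, held 30 counts over all 20 libraries against 3426 for its up barcode agatgtagaccaccgtgtcc, so that the values of this strain rest on the up barcode.

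Libraries held 126647 to 337544 counts, and the 21 strains together took 3.72% to 5.76% of the counts of kept strains. A single strain had between 26 and 2083 counts in a library. Values are log2 ratios of a strain's count on a later day over day 0 of the same fraction, less the median of the same ratio over the 347 kept strains, so 0 is the median strain. Their 95% intervals are exact (Clopper-Pearson) and describe the counting of reads alone. PCR copies of a molecule are read more than once, so the intervals understate the error. At day 24 the down barcodes of the quiescent library held 12.4% of its named counts, against 32.2% to 49.4% in the other libraries. The day 5 libraries did not resemble those of day 3 of their own fraction. Across strains the quiescent library of day 5 was closest to the non-quiescent library of day 3 (Spearman's rho 0.82 on levels centred per strain) and the non-quiescent library of day 5 to the quiescent one of day 3 (0.84), while the same-fraction values were 0.08 and -0.05. The non-quiescent library of day 5 was close to that of day 7 of its own fraction (0.64), the quiescent one was not (-0.28), and the libraries of day 2 were close to those of day 3 of the same fraction. The day 1 libraries were nearest to day 3 (non-quiescent, 0.54) and day 2 (quiescent, 0.51) of their own fraction. An exchange of the fractions at day 5, or at days 1, 2 and 3, would turn the sign of the fraction ratios of those days. It would also move the counts behind every level of those days to the other fraction. Whether one took place was not tested. Tests that use day 5 are given with and without it.

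The first comparison asked whether tail and fold positions differed in the level kept in the quiescent fraction. At day 44 the 8 tail strains had a median of 0.43, with a range of -0.56 to 0.61, and the 13 fold strains a median of -0.76, with a range of -3.36 to 0.75. No strain lay above 1, and 5 lay below -1, each of them a fold strain. The lowest tail strain, H3A1S, stood above 7 of the 13 fold strains and below the other 6, so the groups overlapped in their upper part. The strains are members of 1 pool and not replicates of a position, so this difference of 1.18 has no test. It was 1.20 with helix positions only, which left out the N-terminal helix of H3.

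The difference between the medians was largest from day 24 on. The tail median exceeded the fold median by 0.12 at day 1, 0.25 at day 2, 0.27 at day 3, 0.39 at day 5, 0.18 at day 7 and 0.32 at day 14, and then by 0.97 at day 24, 0.96 at day 34 and 1.18 at day 44. At day 7 all 21 strains lay between -0.75 and 0.51. Over all kept strains the SD was 1.26 on that day, with quartiles of -0.50 and 0.34 and a lowest value of -7.16. The median distance from 0 was 0.40 for the 21 strains and 0.40 for all kept strains, so the typical strain of the 21 was no closer to 0. None was more than a log2 unit below the median strain then, against 49 of 347 kept strains and 27 of the other 164 fold substitutions. The other 112 tail substitutions had 5 that low, and the 15 changes from serine to alanine had 0. Counted from day 7 to day 44, the tail strains had a median of 0.25 and the fold strains one of -0.65.

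The wild type stood at 0.41 at day 44 (0.29 to 0.54), and 16 of the 21 strains lay below it. These were 12 of the 13 fold strains and 4 of the 8 tail strains, whereas 232 of the 347 kept strains lay below it.

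H4A89S, in the third helix of H4, which takes part in the contact with histone H2B, had the lowest level. Its quiescent counts were 528 at day 0, 316 at day 7, 176 at day 14, 51 at day 24, 96 at day 34 and 43 at day 44, where the library of day 34 was the deepest. Relative to the median strain these were -0.63, -1.71, -2.74, -3.10 and -3.36 from day 7 on, so each library after day 7 was lower than the one before it. This strain ended with a ratio to day 0 that was 10.2-fold below that of the median strain (95% counting interval -3.84 to -2.91 on the log2 scale). It was also the only 1 of the 21 below -1 at day 1, at -1.08. In the libraries labelled quiescent it was back at -0.22 on day 2 and 0.21 on day 3. These values of days 1, 2 and 3 hold only if the labels of those libraries are right.

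H3A110S, H3A111S and H3A114S lie at the end of the long second helix of H3, where the H3 copies of a nucleosome meet. H3A110S had 655 counts at day 0 and 361, 306, 102, 152 and 62 at days 7, 14, 24, 34 and 44. Its levels of -0.75, -1.23, -2.05, -2.75 and -3.14 followed the same downward order as those of H4A89S, and the intervals of both strains at day 44 overlapped (-3.54 to -2.76 for H3A110S). H3A111S, the neighbouring residue, ended at -2.09 (-2.46 to -1.73) from 393 counts at day 0 and 77 at day 44. It had reached -2.14 by day 34, so it did not go lower between the last samples. H3A114S ended at -1.78 (-2.18 to -1.38), on 275 and 67 counts, and passed through -1.01, -1.19 and -1.39 at days 14, 24 and 34.

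H3A88S lies near the start of the same helix. It stood at -0.34 at day 7 and -0.61 at day 14, then at -1.94, -1.88 and -1.92 at days 24, 34 and 44, a single step between days 14 and 24 that was kept on 26, 65 and 34 counts. The intervals of H3A88S, H3A111S and H3A114S at day 44 overlapped, so their order is not resolved by the counts. The other alanines of the second helix did not share these levels. H3A91S ended at -0.08 (-0.34 to 0.18) and H3A98S at 0.02 (-0.27 to 0.31), so the 6 changes in this helix ran from -3.14 to 0.02, with the low values at both of its ends.

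For stationary phase, a slope on the day was tested in quiescent cells over days 7, 14, 24, 34 and 44, for each kept strain with edgeR's quasi-likelihood test and Benjamini-Hochberg adjustment over all 347. Its error is the scatter of these 5 libraries about a line, with each strain's estimate drawn towards that of all kept strains. How cultures differ from one another is not part of it. Of the 21 strains, 7 fell, against 22.8% of all kept strains, and 1 rose, against 17.9% of all. The strains that fell were 6 of the 13 fold strains and 1 of the 8 tail strains, and H4A33S was the one that rose. With library totals 9 fell and none rose, against 31.4% and 9.51% of all kept strains, and H3A127S and H3A91S were the additions.

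The steepest fall was that of H4A89S, at -0.73 log2 units per 10 days (SE 0.12, adjusted p = 0.00381). H3A110S fell by 0.66 (SE 0.076, adjusted p = 0.00203), H3A88S by 0.46 (SE 0.13, adjusted p = 0.0255) and H3A111S by 0.43 (SE 0.097, adjusted p = 0.0119). Smaller falls were those of H3A114S at -0.25 (SE 0.087, adjusted p = 0.0484), H3A75S at -0.24 (SE 0.066, adjusted p = 0.0245) and H3A1S at -0.20 (SE 0.062, adjusted p = 0.0325). H4A89S and H3A110S passed the test in every alternative tried, the removal of any 1 library included. Without the day 7 library these were the only 2 of the 21 called, where 7.49% of all kept strains fell and 1.73% rose, and H3A111S had an adjusted p of 0.118 and H3A88S one of 0.137. Without day 34, 3 of the 21 fell, against 12.7% of all. H3A114S lost its call when any single library was left out, with adjusted p from 0.0574 without day 24 to 0.197 without day 7.

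Among the other fold strains, H3A75S, at the end of the first helix of H3, had 355 counts at day 0 and 175 at day 44, a level of -0.76 (-1.03 to -0.49). It stood at 0.27 on day 7 and -0.28 on day 14, so its low level arose after day 7. H3A127S, in the third helix of H3, ended at -0.80 (-1.07 to -0.53), having stood at -0.07 on day 7 and -0.85 on day 24. Its stationary slope of -0.19 (SE 0.073) did not pass (edgeR adjusted p = 0.073), but it did without day 24. H3A47S, in the short N-terminal helix of H3 beside the DNA ends, stayed between -0.13 and 0.20 from day 7 on, on 147 to 387 counts.

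H4A33S, in the first helix of H4, was the highest of the 21. Its quiescent counts were 802 at day 0, 548 at day 7, 1165 at day 14, 762 at day 24, 2083 at day 34 and 1124 at day 44. It lay at -0.44 on day 7 and then at 0.41, 0.56, 0.74 and 0.75, so the rise followed an early dip. It ended with a ratio to day 0 that was 1.68-fold that of the median strain (0.62 to 0.88 on the log2 scale). By this ratio 77 of the 347 strains were higher, and H4A33S lay 0.34 above the wild type on the log2 scale. Its stationary slope was 0.28 per 10 days (SE 0.088, edgeR adjusted p = 0.0352). The call depended on day 7, without which the slope was 0.13 (adjusted p = 0.395), and it was lost without day 34 (adjusted p = 0.103) and with library totals, the wild type as the reference or the down barcode alone.

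H4A38S and H4A56S stayed near the median strain. H4A38S, in the same helix as H4A33S, lay between -0.20 and 0.13 from day 7 on and ended at 0.05 (-0.21 to 0.31). H4A56S, in the second helix of H4, had the flattest course of the 21, from -0.01 to 0.11 over the same days on 481 to 1114 counts. It had the median ratio of day 44 to day 0 among the 347 kept strains, and its stationary slope was 0.003 (SE 0.048).

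At day 44 the tail strains lay between -0.56 and 0.61. H3A21S ended at 0.61 (0.37 to 0.86), H4A15S at 0.58 (0.29 to 0.87), H3A7S at 0.54 (0.28 to 0.80), H3A15S at 0.51 (0.21 to 0.81) and H3A25S at 0.34 (0.17 to 0.52), and these intervals overlapped one another. H3A29S, next to the phosphorylated serine H3S28, ended at 0.04 (-0.18 to 0.27). H4A15S, beside the acetylated lysine H4K16, had 181 counts at day 0, 186 at day 7 and 226 at day 44, and it ended at similar levels by its up and its down barcode (0.61 and 0.53). Its level of 0.92 at day 24 lay above those of both barcodes, 0.72 and 0.00, in the library with few down counts.

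H3A1S and H3A24S were the tail strains below the median strain at the end. H3A1S changes the first residue of H3, near the methylated lysine H3K4. It stood at 0.40 on day 7 and at -0.12, -0.31, -0.32 and -0.56 on days 14, 24, 34 and 44, and it was the tail strain that fell in the stationary test. That call was lost without day 7 (adjusted p = 0.284), day 34 or day 44. H3A24S was already at -0.46 on day 7 and at -0.55 on day 44 (-0.75 to -0.35), with a stationary slope of -0.03 (SE 0.061, edgeR adjusted p = 0.742). Its neighbour H3A25S lay above the median strain in each of the 9 quiescent libraries after day 0, so these adjacent alanines of the tail differed by more than their counting intervals at the end.

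Over all 10 quiescent libraries, with the slope on log2(day + 1), 6 of the 21 strains fell, against 27.1% of all kept strains, and 4 rose, against 21.6% of all. The 6 were fold strains: H4A89S, H3A110S, H3A88S, H3A111S, H3A114S and H3A127S, with slopes from -0.66 to -0.17 per log2 unit of time. Of the 4 that rose, H3A7S, H3A21S and H4A15S were tail strains and H4A33S a fold strain, with slopes of 0.11, 0.10, 0.13 and 0.17 and edgeR adjusted p of 0.0169, 0.0432, 0.0361 and 0.0495. Without day 5 the same 4 rose and 7 fell, H3A1S being the addition, against 30% and 27.1% of all kept strains. Without day 34 none of the 21 rose, and without day 2 or day 44 only H3A7S did, against 15%, 18.4% and 15.3% of all. In each of these cases 5 fell, against 21%, 24.2% and 20.7% of all. The rises were small enough to turn on the scaling: with library totals or with the wild type as the reference none of the 4 passed, against 14.1% and 12.4% of all kept strains rising. Under these scalings 8 and 10 of the 21 fell, against 30% and 37.8% of all. H3A88S, H3A110S, H3A111S, H3A127S and H4A89S kept their call under each of the alternatives.

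In the non-quiescent fraction levels changed little from day 7 to day 44. The span between the lowest and highest of the 5 days had a median of 0.24 over the 21 strains, with 0.53 for H4A89S as the widest, against a median of 0.78 and a widest of 2.72, again H4A89S, in the quiescent fraction. The span was wider in the quiescent fraction for 20 of 21 strains, H4A56S being the exception. H3A110S, for example, had 290, 373, 303, 310 and 387 non-quiescent counts on days 7 to 44, and levels of -0.95, -0.84, -0.84, -0.91 and -0.85 over day 0. H3A88S, at -1.92 in quiescent cells at day 44, stood at 0.50 in the non-quiescent ones.

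Most of the change in this fraction came before day 7. H3A25S went from 263 counts at day 0 to 1266 at day 1, a level of 1.92, and then lay between 1.08 and 1.95, the highest of the 21 in every later non-quiescent library. At the other end H3A114S stood at -1.39, -1.57 and -2.05 on days 1, 2 and 3 and at -1.10 on day 44, and H3A110S at -1.17, -1.62 and -2.02 on the first days. The values of days 1, 2 and 3 hold only if the fraction labels of those libraries are right. In the libraries labelled quiescent they were -0.64, -0.28 and -0.87 for H3A114S and -0.70, -0.62 and -0.60 for H3A110S. No strain of the 21 passed the slope test over the 10 non-quiescent libraries (edgeR, 2 at an unadjusted p under 0.05), where 0.865% of all kept strains rose and 5.76% fell. DESeq2 also called 0 of the 21, where 2.59% of all rose and 8.36% fell. Without day 5 edgeR called 0 of the 21 as well, where 1.44% of all rose and 6.05% fell. From day 7 on, 0 of the 21 passed in either direction by edgeR or DESeq2 (1 at an unadjusted p under 0.05), as did 0% of all kept strains. The tail strains had a median of 0.41 in this fraction at day 44 and the fold strains one of -0.12, a difference of 0.53.

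The fractions were also set against each other on the same day. The ratio of the quiescent to the non-quiescent count at day 7, less its median over kept strains, lay between -0.43 and 0.32 for the 21 strains. At day 44 it was -2.69 for H4A89S, -2.24 for H3A110S, -1.85 for H3A88S and -1.58 for H3A111S, and 1.03 for H4A33S. The median was 0.18 for the tail strains and -0.70 for the fold strains. On days 2 and 3 the order was opposite for some of the same strains: H3A110S lay at 1.10 and 1.56, H3A114S at 1.24 and 1.19, and H3A1S at 1.20 and 1.37. On day 5 these 3 strains lay at -1.55, -1.53 and -1.30, and the signs of these values for days 2, 3 and 5 hold only if the fraction labels of those libraries are right.

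Averaged over all days, with day as a block, 0 of the 21 strains differed between the fractions by edgeR (4 at an unadjusted p under 0.05), as did 0% of all kept strains in either direction. Without day 5, H4A33S was higher in quiescent cells by 0.67 (SE 0.13, adjusted p = 0.0103) and H3A75S lower by 0.62 on the log2 scale (value -0.62, SE 0.12, adjusted p = 0.0101), while 8.65% of all kept strains were higher and 4.9% lower. DESeq2 with all days called the same pair, with H4A89S and H3A127S also lower, where 9.12% of the 340 strains tested were higher and 7.35% lower.

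The change of the fraction difference with time was tested as the interaction of fraction with log2(day + 1). Here 6 of the 21 strains had a lower slope in quiescent cells, against 17.6% of all kept strains, and 1 had a higher one, against 15.3% of all. The 6 were H4A89S, H3A110S, H3A88S, H3A111S, H3A127S and, of the tail, H3A24S, and the other was H3A7S. H3A88S had the smallest p, with a difference of slopes of -0.47 (SE 0.075, edgeR adjusted p = 0.00324), and it kept its call under each of the alternatives. Without day 5 the counts were 7 and 2, with H3A1S and H4A33S added, against 21.3% and 20.2% of all kept strains. Over days 7 to 44 alone, H4A89S, H3A110S, H3A88S and H3A111S were lower and none was higher, against 14.4% and 11% of all kept strains. Calls other than that of H3A88S turned on single days: without day 24 H3A88S and H4A89S were the only ones lower (8.36% of all), and without day 34 or day 44 H3A88S alone was (4.32% and 3.46%), with none higher. H3A7S kept its call in 3 of 18 alternatives.

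The other single substitutions of the library give the background for these levels. The other 164 single substitutions of fold residues had a median of -0.15 at day 44 and a range of -8.53 to 2.48, and 50 of them lay below -1, against 5 of the 13 changes to serine with their median of -0.76. In the stationary test 43 of these 164 fell and 26 rose. The other 112 tail substitutions had a median of 0.33, near the 0.43 of the 8 changes to serine. Their range was -6.00 to 2.68, and 15 (13.4%) lay below -1 and 20 above 1, where the changes to serine had none. With 8 strains, none beyond these limits does not show a narrower spread. The reverse change, serine to alanine, was present in 15 strains, with a median of 0.06 and a range of -1.62 for H3S87A to 1.85 for H3S10A. The 80 other changes to alanine in the folds had a median of -0.60, and 31 of them (38.8%) lay below -1. The 21 other substitutions of fold residues next to these alanines had a median of -0.44, and 8 (38.1%) lay below -1. These shares are near the 38.5% of the 13 fold changes to serine. The 25 exchanges between lysine and arginine in the folds, which keep the charge, had a median of -0.14. These lists differ in residues and size, and no difference between them was tested.

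Changes at residues next to these alanines were set beside them. Beside H3A110S, H3L109A ended at -0.44 and rose from day 7 on (0.20 per 10 days, SE 0.062, edgeR adjusted p = 0.0358). Beside H4A89S, H4Y88A and H4Y88F ended at -1.29 and -1.08, but their stationary slopes of 0.08 and -0.09 did not pass (adjusted p of 0.6 and 0.548), so no fall after day 7 was called for them. H4P32A, beside H4A33S, ended at 0.91 and rose by 0.42 per 10 days (SE 0.087, adjusted p = 0.0093). H4L37A, beside H4A38S, ended at -4.78 and H4R39K, on its other side, at 0.10. H3Y99A and H3Y99F, beside H3A98S, ended at -0.48 and 0.46. Next to the other strains that fell in the stationary test, some changes fell as well. H3R2A and H3R2K (beside H3A1S), H3I74A (beside H3A75S) and H3S87D (beside H3A88S) had slopes of -1.09, -0.757, -0.755 and -0.63. Their edgeR adjusted p ran from 0.00277 to 0.00465. H3K115R, beside H3A114S, rose by 0.40 (edgeR adjusted p = 0.0183), and H3Q76A, H3Q76E, H3S87A and H3K115Q did not pass.

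Tail deletions that remove 1 of these alanines together with its neighbours spread far more widely than the changes to serine. Of 21 such deletions 17 were kept, and they ended between -5.17 and 2.13. The deletion of H3 residues 1 to 4 ended at -4.61 and fell by 1.01 per 10 days (edgeR adjusted p = 0.00203), where H3A1S ended at -0.56. Those of residues 5 to 8 and 5 to 12 ended at -2.705 and -2.715 and both fell (edgeR adjusted p = 0.00777 and 0.0204), where H3A7S ended at 0.54. Around H3A15, the deletions of residues 9 to 16, 13 to 16, 13 to 20 and 9 to 20 ended at -0.45, -0.78, -2.37 and -5.17, against 0.51 for H3A15S. The deletion of residues 25 to 28 ended at 1.10 and that of residues 29 to 32 at 1.22, where H3A25S and H3A29S ended at 0.34 and 0.04. Those of residues 28 to 31 and 29 to 36, which also remove H3A29, ended at 0.51 and -0.19. Around H4A15, the deletion of residues 13 to 16 ended at 1.20 and that of residues 15 to 18 at -2.99, against 0.58 for H4A15S. Those of residues 9 to 16, 9 to 20, 13 to 20 and 13 to 24 ended at 2.13, 0.12, 0.15 and -1.495.

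The up and the down barcode, counted apart, served as a check within a library. At day 44 over day 0 18 of 21 strains lay above or below the median strain by both, and the ratios differed by a median of 0.14 and at most by 0.68, for H3A29S. For the 5 lowest strains the barcodes gave -3.42 and -3.20 (H4A89S), -3.07 and -3.29 (H3A110S), -2.19 and -1.84 (H3A111S), -1.89 and -1.87 (H3A88S) and -1.80 and -1.67 (H3A114S). Both barcodes come from the same cells, so they bear on counting and amplification and not on the culture.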

How the data were processed

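Barcode counts of 20 libraries of 1 culture were analysed. The authors counted the up and down barcodes of each strain in single-end reads with get_seqs_from_fastq and match_barcodes_to_strain, and the deposited library files hold raw counts. The deposited barcode table gives each strain's mutation and barcode sequences and holds no other measurement. A deposited table of log2 values made by the authors was not used. Up and down counts were joined by barcode identifier and summed, with a blank down identifier read as 0, and the wild type, listed under 1 barcode pair with a second empty listing, was counted once. Barcode pairs with no strain name held 10.6% to 20.7% of a library's counts and stayed unnamed. For ratios, 0.5 replaced a count only where it was 0.

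Slopes, the fraction term and the interaction were fitted with edgeR 4.0.16 in R 4.3.3 (TMM, quasi-likelihood F-test, Benjamini-Hochberg over 347 strains, threshold 0.05), with 3 residual degrees of freedom for stationary slopes, 8 for whole-course slopes and the interaction and 9 for the fraction term. The quasi-likelihood fit drew each strain's error estimate towards that of all tested strains, so the tests also rest on degrees of freedom borrowed from them. Serial samples of 1 culture were taken as independent. The biological coefficient of variation was 0.189 for the quiescent stationary slope and 0.356 for the quiescent whole-course slope. The fits were tested on simulated data with known changes. The simulated counts were independent between libraries, with the same variability for every strain and changes along a straight line. The real libraries are serial samples of 1 culture, so the shares below need not hold for them. Of strains given a log2 change of 1 over the course, the quiescent stationary slope recovered 66% and the quiescent whole-course slope 24%. With a change of 2 they recovered 99% and 89%, and of unchanged strains they called 2.04% and 1.36%. A strain that did not pass may thus have changed by a log2 unit. Alternatives were DESeq2 1.42.0, library totals, the wild type as reference, other count minimums, single barcodes, pooled days, the other fraction and leaving out each day. Python 3.11.15 with numpy 2.4.6, pandas 2.3.3 and scipy 1.17.1 was used for ratios. All alanine to serine strains, the wild type, the kept neighbours of the 3 lowest and 3 highest fold strains and the kept deletions that remove 1 tail alanine were named by rule. H3S87A and H3S10A were named as the ends of their list. Kept neighbours of the other strains that fell in the stationary test were named outside this rule. The strains, lists and tests were chosen with earlier results of these data known.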

Additional observations from a re-analysis of the deposited data

Results flagged for a closer look

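A difference between the fractions in the slope on log2(day + 1) was found for 7 of the 21 strains. The test was the interaction test (edgeR quasi-likelihood test, Benjamini-Hochberg over 347 strains). The slope was lower in quiescent cells for 6 of the 21, against 17.6% of all kept strains. It was higher for 1, against 15.3% of all. Such differences were thus not particular to the 21 strains. The difference, quiescent less non-quiescent, was -0.51 for H4A89S (adjusted p = 0.0159), -0.50 for H3A110S (adjusted p = 0.0276), -0.47 for H3A88S (adjusted p = 0.00324) and -0.40 for H3A111S (adjusted p = 0.0276). It was -0.17 for H3A127S (adjusted p = 0.0303), -0.14 for H3A24S (adjusted p = 0.0378) and 0.15 for H3A7S (adjusted p = 0.0424). H3A88S kept its call in all 18 alternatives, H4A89S in 16, H3A111S in 14, H3A110S in 13, H3A127S in 12, H3A24S in 10 and H3A7S in 3. Without day 5, adjusted p-values of the 7 strains ran from 0.00326 for H3A88S to 0.0333 for H3A7S.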

How the results depend on the processing

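No called result changed direction under any alternative. Library totals put the median strain at -0.16 at day 44 over day 0 and at -0.32 at day 44 over day 7, and the wild type stood 0.41 and 0.30 above it. Of the stationary slopes in quiescent cells, 0 of the 21 rose with library totals or the wild type as the reference, against 9.51% of all under each. With the up barcode alone 2 rose, against 18.2% of all. Leaving out 1 day gave 0 to 3 rising and 2 to 7 falling, against 1.73% to 23.3% and 7.49% to 25.4% of all. Over the whole course 0 rose with library totals or the wild type, against 14.1% and 12.4% of all. With the down barcode alone 1 rose (17.6% of all), and with the wild type 10 fell (37.8% of all). Leaving out 1 day gave 0 to 4 rising and 5 to 7 falling, against 15% to 30% and 20.7% to 27.1% of all. In non-quiescent cells leaving out 1 day gave 0 to 2 falling over the whole course, against 3.17% to 9.51% of all. The up barcode alone gave 1 rising stationary slope there, against 1.15% of all. The fraction term was called for 1 higher and 3 lower by DESeq2, against 9.12% and 7.35% of all tested. With 1 day left out it was called for 0 to 1 in each direction, against 0% to 8.65% higher and 0% to 4.9% lower of all. For the interaction, 0 were higher with library totals, the wild type, no filter, a minimum of 50 counts, either barcode alone or days 7 to 44 alone (an alternative chosen after seeing the data). Under these alternatives 5.48% to 14.8% of all were higher. With the down barcode alone 3 were lower, against 11.2% of all. Leaving out 1 day gave 0 to 2 higher and 1 to 7 lower, against 1.73% to 20.2% and 3.46% to 22.2% of all. The median ratio of the 21 strains at day 44 over day 0, -0.08, was -0.49 relative to the wild type. At day 44 over day 7, -0.03, it was -0.35 with library totals, -0.32 relative to the wild type and -0.31 with the down barcode alone. At day 7 over day 0, -0.07, it was 0.25 in non-quiescent cells. The tail less fold difference at day 44 over day 0, 1.18, was 0.84 with the down barcode alone and 0.53 in non-quiescent cells, and at day 44 over day 7, 0.90, it was 0.086 in non-quiescent cells. The cause of these changes was not tested. The depth sets the precision of the low strains: H3A88S held 26 to 65 quiescent counts from day 24 on and H4A89S 43 to 96.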
